A study of Mus musculus with 8 samples.

Results

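Esr1, the gene of the oestrogen receptor ERα, and 6 genes of proteins that work with nuclear receptors were followed through the ac4C peak lists of mouse female germline stem cells (FGSCs) and of the differentiated germ cells obtained from them (Dif-FGCs). The 6 coregulators were the p160 coactivators Ncoa1, Ncoa2 and Ncoa3, the coactivator Ncoa6, and the corepressors Ncor1 and Nrip1. They were chosen by name: a peak counted where the gene name in the deposited list was one of these 7. That gave 107 of 75481 peaks, and 7 of 11417 genes found in any list. The rule used names and no measured value, although the 7 names were picked with earlier results of these data known.

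The lists come from acRIP-seq, in which RNA fragments that carry N4-acetylcytidine (ac4C), a base made by the acetyltransferase NAT10, are pulled down with an antibody and sequenced. Dif-FGCs are labelled as the differentiated group and are recorded at day 3. By the study's methods they were grown beside granulosa cells in medium that held retinoic acid, BMP4 and bFGF. FGSCs are labelled as the control group, a cultured line from mouse ovary from which the Dif-FGCs were made. Each group has 2 immunoprecipitated (IP) libraries with an input library each, numbered Dif-FGC 1 and 2 and FGSC 1 and 2. The labels name no genetic difference between the groups. The study calls the replicates biological, but the labels do not tie them to separate cultures, so p-values cover only the spread between these samples.

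ERα binds oestradiol and then regulates transcription at oestrogen response elements and, through other factors, at further sites. Bound by an agonist it recruits the p160 coactivators, which in turn bring in histone acetyltransferases and methyltransferases, whereas antagonists favour corepressors such as NCOR1, which carry histone deacetylases. In the ovary oestrogen signalling is known chiefly from granulosa and theca cells, where the receptor genes Esr2 and Esr1 are expressed.

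Fold is the authors' enrichment of the IP over its own input at a peak. Because lists differ in their folds, each peak was also given its rank by fold as a percent of its list, in which a low percent is a strong peak. The lists held 22480 and 13920 peaks in Dif-FGC 1 and 2, and 22791 and 16290 in FGSC 1 and 2. The median fold over all peaks was 7.06 and 7.92 in Dif-FGCs and 10.12 and 6.92 in FGSCs. The lists give no read counts, so depth is unknown, and the absence of a peak does not show the absence of ac4C. Of 19 granulosa cell marker genes, 9 and 4 had a peak in the Dif-FGC libraries and 5 and 1 in the FGSC libraries, and the summed number of their peaks was 16 and 5 against 12 and 3. The whole lists named 8555 and 6478 genes in Dif-FGCs and 9050 and 8000 in FGSCs. The steroidogenic factor genes Nr5a1 and Nr5a2 had a peak in both Dif-FGC libraries and in neither FGSC library, as had 1.62% of all genes with a peak. Inhba (2 and 0 against 3 and 3) and Kitl (1 and 0 against 3 and 0) had more peaks in FGSCs, and Star (2 and 1 against 1 and 0) fewer. Fst and Gja1 had peaks in FGSC 1 alone, Inha in Dif-FGC 2 alone, and Amhr2, Inhbb, Hsd17b1 and Wt1 in Dif-FGC 1 alone. Foxl2, Amh, Fshr, Cyp19a1, Cyp11a1, Lhcgr and Esr2 had none in any library. The part of granulosa cell RNA in the results that follow was not tested. Of 15 germline stem and early germ cell markers, 4 and 5 had a peak in Dif-FGCs and 6 and 5 in FGSCs, of 14 meiosis markers 1 and 1 against 3 and 3, and of 12 oocyte markers 2 and 1 against 2 and 1.

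The number of ac4C peaks was compared first. All 6 coregulators had a peak in all 4 libraries, against 43.5% of all genes with a peak, and Esr1 did not. None of the 7 genes had peaks in Dif-FGCs only, meaning in both Dif-FGC libraries and in neither FGSC library, and none in FGSCs only. Over all genes these classes held 1.62% and 5.25%. The members had 34 and 16 peaks in Dif-FGCs and 37 and 20 in FGSCs, so the first library of each group held more than the second, as in the whole lists.

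**Figure D1:**
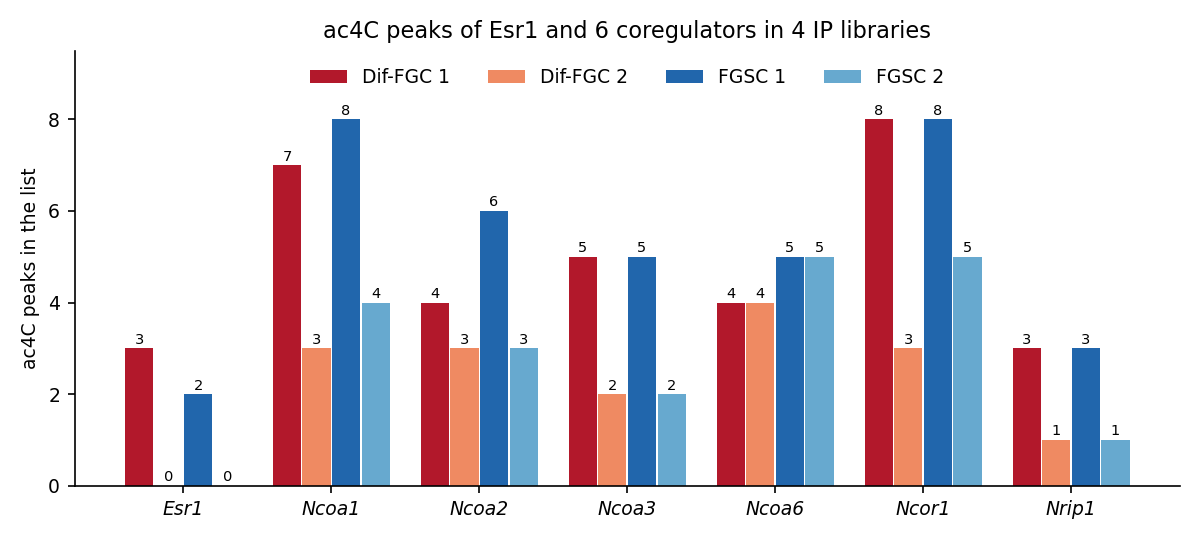
Number of ac4C peaks (vertical axis) of each of the 7 genes in the 4 IP libraries; each bar is 1 library, Dif-FGC in red and FGSC in blue. Esr1 had peaks only in the first library of each group, and Ncoa6 was the only gene whose numbers did not overlap between the groups, with 4 and 4 in Dif-FGCs and 5 and 5 in FGSCs.

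Esr1 (gene ID 13982, chr10:4611989-5005633 in GRCm38.p6, the mm10 build of the lists) had 3 and 0 peaks in Dif-FGC 1 and 2, and 2 and 0 in FGSC 1 and 2. The groups overlapped, and both second libraries were without a peak. The mean was 1.5 ± 2.12 peaks in Dif-FGCs and 1 ± 1.41 in FGSCs (SD, n = 2 each), a difference of 0.5 that was smaller than the spread between replicates (exact two-sided permutation p = 1). The smallest p that 2 libraries against 2 can reach is 0.33, so no single gene could pass the threshold of 0.05. The study reports more ac4C at Esr1 in Dif-FGCs, from read tracks and from PCR after ac4C pull-down. Neither was examined here, and a peak number is another measure.

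The p160 coactivator Ncoa1 (SRC-1, gene ID 17977) had 7 and 3 peaks in Dif-FGCs and 8 and 4 in FGSCs. Ncoa2 (GRIP1, gene ID 17978) had 4 and 3 against 6 and 3. Ncoa3 (AIB1, gene ID 17979) had 5 and 2 in either group. In each of the 3 genes the groups overlapped, with exact permutation p = 0.667 for Ncoa1 and p = 1 for the other two.

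Ncoa6 (gene ID 56406), a subunit of a complex that carries histone H3 lysine methyltransferases, had 4 and 4 peaks in Dif-FGCs and 5 and 5 in FGSCs. It was the 1 member with fewer peaks in both Dif-FGC libraries than in both FGSC libraries, where 9.24% of all genes lay, and no member had more in both, where 4.94% lay. Its exact permutation p was 0.333, the smallest possible, which 1619 genes reached, and after Benjamini-Hochberg adjustment over 11417 genes it was 1.

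The nuclear receptor corepressor Ncor1 (gene ID 20185), the scaffold of the HDAC3 corepressor complex, had 8 and 3 peaks in Dif-FGCs and 8 and 5 in FGSCs. Nrip1 (RIP140, gene ID 268903), which binds the agonist-bound receptor and represses its targets, had 3 and 1 in either group. Neither difference exceeded the replicate spread (exact permutation p = 1 for both, and an adjusted p of 1 for every member).

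Peaks from different lists were joined to a locus wherever they shared 1 bp or more, which gave 56 member loci among 39860. Of these, 11 (19.6%) had a peak in all 4 libraries, against 15.5% of all loci. None (0 of 56) was in Dif-FGCs only, against 3.65% of all loci, and 2 (3.57%) were in FGSCs only, against 3.61%. These shares lay near those of all loci. The FGSC-only loci were chr12:4290814-4290994 in Ncoa1, with folds of 12.78 and 7.24 in FGSC 1 and 2, and chr1:13285969-13286025 in Ncoa2, with folds of 5.95 and 5.94.

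A single library held 32 of the 56 loci (57.1%, against 54.7% of all loci). Of the 56 loci, 13 were in Dif-FGC 1 alone (23.2%, against 18.7% of all loci), 2 in Dif-FGC 2 alone (3.57%, against 4.2%), 15 in FGSC 1 alone (26.8%, against 21%) and 2 in FGSC 2 alone (3.57%, against 10.8%). A further 5 loci (8.93%, against 5.13%) were found in the first library of both groups and in neither second library, and 0 in the second libraries alone. Most loci found once were in the longer list of each group, for the members as for all loci.

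**Figure D2:**
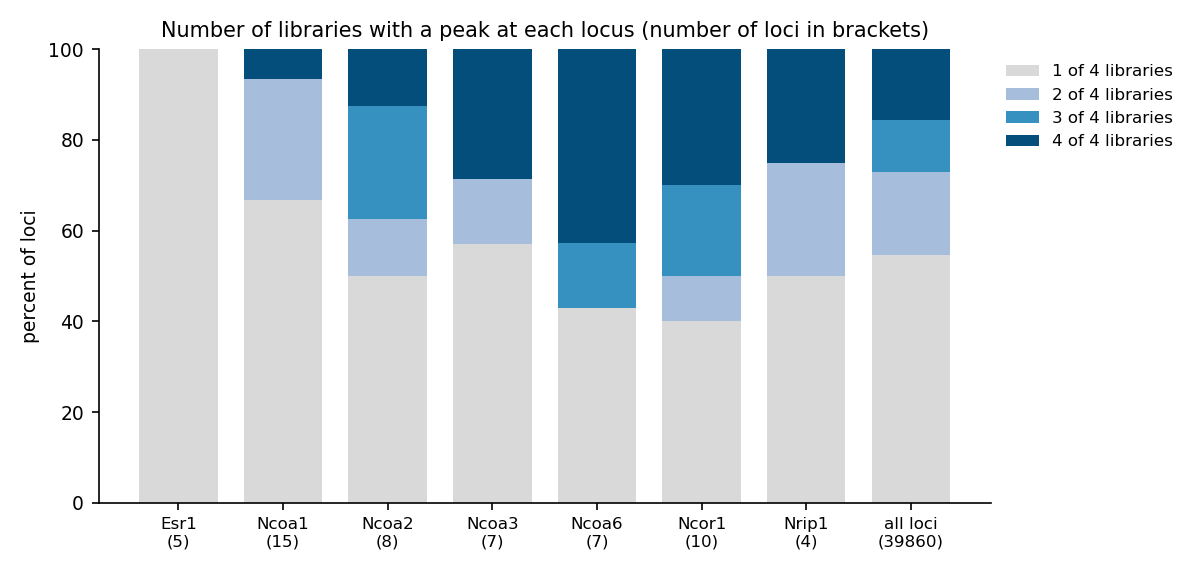
Percent of loci (vertical axis) with a peak in 1, 2, 3 or 4 of the 4 IP libraries, for each gene and for all loci, with the number of loci in brackets. All 5 loci of Esr1 were found in 1 library, while Ncoa6 and Ncor1 each had 3 loci in all 4 libraries.

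The genes differed in how often a locus recurred. Esr1 had 5 loci, each in a single library, 3 in Dif-FGC 1 and 2 in FGSC 1. Ncoa1 had 15 loci with 1 in all 4 libraries and 10 in a single one. Of the other genes, Ncoa2 had 1 of 8 loci in all 4 libraries, Ncoa3 2 of 7, Ncoa6 3 of 7, Ncor1 3 of 10 and Nrip1 1 of 4. Recurrence was also counted by strength, for member peaks ranked within 50% of their list and for those beyond it.

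Of the stronger member peaks of Dif-FGC 1, 11 of 15 (73.3%, against 67.7% of all such peaks) were found again in Dif-FGC 2, and of the weaker ones 2 of 19 (10.5%, against 27.1%). From Dif-FGC 2 to Dif-FGC 1 it was 8 of 8 stronger peaks (100%, against 90.6%) and 5 of 8 weaker ones (62.5%, against 60.2%). In each direction the stronger peaks recurred in the larger share, as they did over all peaks. From FGSC 1 to FGSC 2 it was 14 of 20 stronger peaks (70%, against 59.6%) and 2 of 17 weaker ones (11.8%, against 24.2%). From FGSC 2 to FGSC 1 it was 11 of 13 (84.6%, against 75.2%) and 5 of 7 (71.4%, against 42%).

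In both lists that held one, the strongest peak of Esr1 ranked below that of each coregulator. It had a fold of 8.55 in Dif-FGC 1 (rank 41.6% of the list) and 5.95 in FGSC 1 (rank 78.1%). In Dif-FGC 1 the 3 Esr1 peaks were chr10:4712572-4712847 with a fold of 8.55, chr10:4783857-4783906 with 6.69 and chr10:5002320-5002585 with 4.45. In FGSC 1 both peaks, chr10:4969252-4969296 and chr10:4997830-4997958, had a fold of 5.95 and a score of 69.75, the authors' negative log10 of the p-value times 10.

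That pair of values was not particular to Esr1: 256 peaks of the FGSC 1 list (1.12%), in 222 genes, carried the same fold and score. No Esr1 peak overlapped one of another library. The closest peaks of the 2 groups, at chr10:5002320-5002585 in Dif-FGC 1 and chr10:4997830-4997958 in FGSC 1, were 4.36 kb apart near the upper limit of the gene. Esr1 shared its pattern, peaks in the first library of both groups and in neither second library, with 5.52% of all genes, while 0.561% had peaks in the second libraries alone.

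By the rank of their strongest peak in the 4 lists, with 100 entered for no peak, the genes nearest to Esr1 were Sec23a, Ccdc115 and Anxa3, at distances of 1.01, 3.36 and 3.51 percentage points over 4 values. Each had a peak in the first library of both groups and in neither second library, a pattern that the 100 entered for no peak favours.

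**Figure D3:**
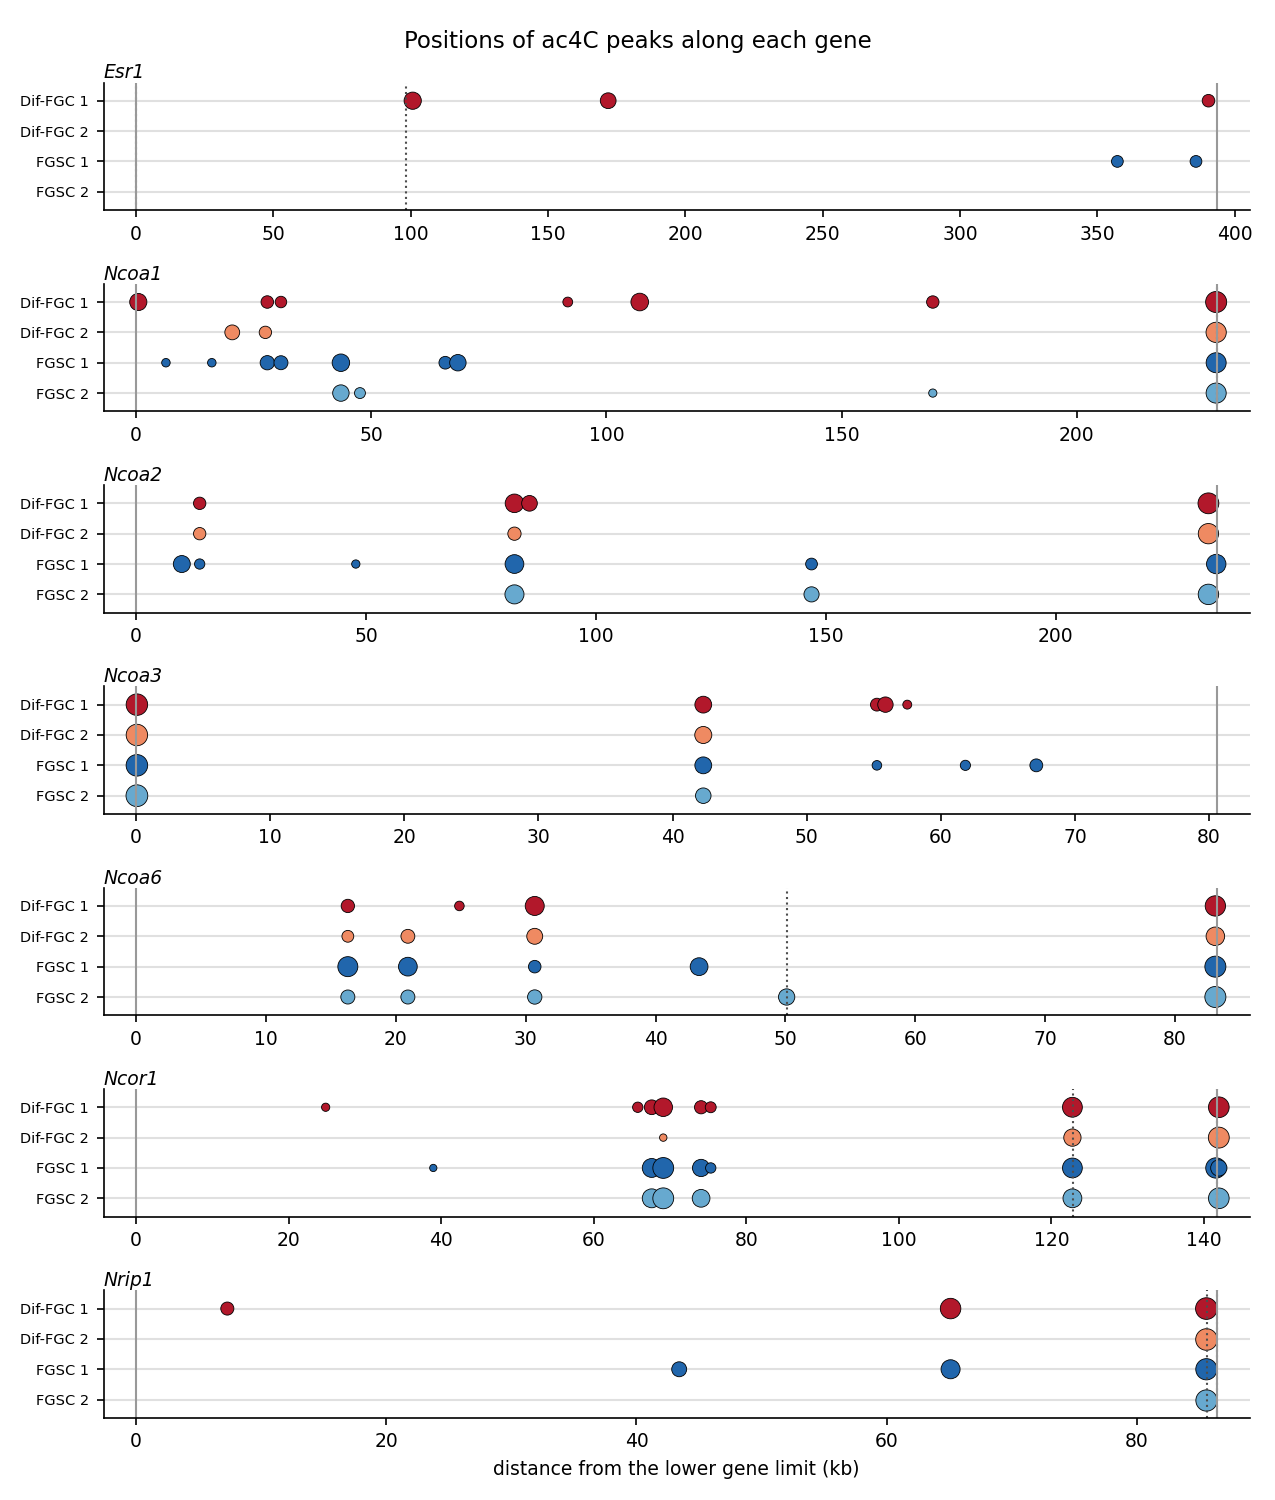
Positions of the peaks of each gene as distance from the lower gene limit in kb (horizontal axis), with a row for each library, Dif-FGC above FGSC; larger points are stronger peaks by rank within their list, solid lines are the gene limits and dotted lines the tabled transcript starts. In Ncoa1, Ncoa3, Ncoa6 and Nrip1 the strongest peak of all 4 libraries lay at the same place at one end of the gene, and Esr1 showed no such place.

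Of the p160 genes, Ncoa3 had the strongest peak. It lay at chr2:165992636-165992758 with the same limits in all 4 lists and began 1 bp below the lower gene limit. Its fold was 65.95 and 54.57 in Dif-FGC 1 and 2, and 87.44 and 308.28 in FGSC 1 and 2, at ranks of 3.46% and 4.02% against 2.94% and 0.638%. The peak was thus within the top 4.02% of every list, and the fold that stood out was that of FGSC 2. Both Dif-FGC ranks were weaker, by 1.95 percentage points and by 0.804 without FGSC 2. A second Ncoa3 locus, chr2:166034885-166034963, was also found in all 4 libraries at ranks of 45% and 43.1% in Dif-FGCs and 44.6% and 54.5% in FGSCs, which overlapped.

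The strongest Ncoa1 peak, chr12:4476772-4477182, was also shared by all 4 libraries. Its fold was 36.04 and 21.77 in Dif-FGCs and 25.6 and 21.08 in FGSCs, at ranks of 7.96% and 15.4% against 17.7% and 16.9%. Both Dif-FGC ranks were the stronger ones, although the difference was -1.86 percentage points without Dif-FGC 1, against -5.6 with all libraries. The 14 other Ncoa1 loci lay inside the gene, and none of them was in all 4 libraries.

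The strongest Ncoa2 peak lay at chr1:13372183-13372439 in 3 libraries, with folds of 30.2 and 22.32 in Dif-FGCs and 25.71 in FGSC 2. In FGSC 1 the strongest peak, with a fold of 20.59, lay at chr1:13373938-13374083, 144 bp below the upper gene limit, and did not overlap it. The Ncoa2 locus of all 4 libraries was chr1:13221307-13221479, with folds of 11.55 and 5.64 in Dif-FGCs and 16.79 and 13.83 in FGSCs, and both Dif-FGC ranks were weaker (30.7% and 69.4% against 29.1% and 26.3%). That difference of 22.3 percentage points was 3.02 without Dif-FGC 2.

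Ncoa6 had 3 loci in all 4 libraries, and they did not run the same way. The strongest, chr2:155473640-155473894, ended 17 bp below the upper gene limit. It had folds of 21.85 and 12.44 in Dif-FGCs and 45.25 and 44.05 in FGSCs, at ranks of 14.7% and 30.6% against 8.16% and 7.85%, so it was weaker in both Dif-FGC libraries, by 14.6 percentage points and by 6.74 without Dif-FGC 2. Inside the gene, chr2:155405475-155408450 was also weaker, with ranks of 69% and 77.8% in Dif-FGCs and 17.9% and 64.5% in FGSCs. However, FGSC 1 stood apart, and the difference of 32.2 percentage points was 8.88 without it. The peaks joined there differed in extent, from 155405475-155408450 in Dif-FGC 2 to 155408289-155408450 in FGSC 2, so the ranks compare unlike stretches. At chr2:155420839-155421869 both Dif-FGC ranks were stronger, 26.7% and 51.6% against 73.7% and 62.7% in FGSCs, with folds of 13.02 and 7.67 against 6.5 and 5.34. The difference was -29.1 percentage points, and -16.6 without Dif-FGC 1.

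Ncor1 held the shared locus with the greatest distance between the groups. At chr11:62384718-62384845, with the same limits in every list, the fold was 11.35 and 2.92 in Dif-FGCs and 38.72 and 36.03 in FGSCs. The ranks were 31.3% and 97.3% against 10.1% and 9.77%, a mean of 64.3% in Dif-FGCs and 9.96% in FGSCs. The difference of 54.4 percentage points was 21.3 when Dif-FGC 2 was left out and 87.4 when Dif-FGC 1 was, and its exact permutation p was 0.333, the smallest possible.

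Of the 4 nearest other Ncor1 loci, 2 gave values on the same side. At chr11:62383161-62383375 the rank was 60% in Dif-FGC 1 and 28% and 27.6% in FGSCs, with no peak in Dif-FGC 2. At chr11:62389691-62389792 it was 69.9% in Dif-FGC 1 and 41.4% and 37.7% in FGSCs, again with no peak in Dif-FGC 2. The other two did not: at chr11:62390979-62391033 the rank was 82.5% in Dif-FGC 1 and 85.2% in FGSC 1, with no peak in the second libraries, and chr11:62381408-62381470 had a peak in Dif-FGC 1 alone, at a rank of 85.3%.

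The order was the other way at a locus named Ncor1 in the lists that lay wholly beyond the upper gene limit, 62457414. The locus chr11:62457436-62457806 had folds of 27.34 and 30.87 in Dif-FGCs and 10.34 and 30.11 in FGSCs, at ranks of 11.4% and 9.49% against 48.9% and 11.7%. It was the strongest Ncor1 peak in both Dif-FGC libraries, whereas the strongest in both FGSC libraries was chr11:62384718-62384845. The difference of -19.9 percentage points was -1.28 without FGSC 1. The peak of FGSC 1 was cut to 62457788-62457806, while that library had a further peak at chr11:62457148-62457330 with a fold of 29.38. The remaining Ncor1 locus of all 4 libraries, chr11:62438338-62438515, had overlapping ranks of 19.4% and 41.1% in Dif-FGCs and 19.8% and 28.3% in FGSCs.

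Nrip1 had its strongest peak at chr16:76372872-76373049 with the same limits in all 4 lists. Its fold was 99.12 and 76 in Dif-FGCs and 55.76 and 59.15 in FGSCs, at ranks of 1.79% and 2.35% against 6.06% and 5.52%. Replicates lay closer together than groups here, and both Dif-FGC ranks were stronger, with a difference of -3.73 percentage points (exact permutation p = 0.333) that ran from -4.01 to -3.45 as each library was left out. It was the strongest member peak in both Dif-FGC lists, and Ncoa3 held that place in both FGSC lists. A second Nrip1 peak, chr16:76352474-76352549, was found in the first library of both groups, with a fold of 23.94 in Dif-FGC 1 and 18.41 in FGSC 1.

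Over the 11 shared loci, 5 had weaker ranks in both Dif-FGC libraries than in both FGSC libraries, where 16.3% of all loci of the 4 libraries lay, and 4 had stronger ranks in both, where 22.6% lay. The other 2 overlapped. The weaker loci were in Ncoa2, Ncoa3, Ncoa6 and Ncor1, and the stronger ones in Ncoa1, Ncoa6, Ncor1 and Nrip1, so that by fold Ncoa6 and Ncor1 each held loci of both kinds. The stronger Ncor1 locus bore the gene's name but lay beyond its upper limit. Ranked by the authors' score the stronger Ncoa6 locus overlapped, and ranked among shared loci alone the stronger Ncor1 locus did, so for either gene the opposite directions were lost in 1 of the alternatives. Each of the 9 had the smallest possible p of 0.333. Limits were identical in all 4 lists at 4 of the 11, against 43.9% of all such loci.

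**Figure D4:**
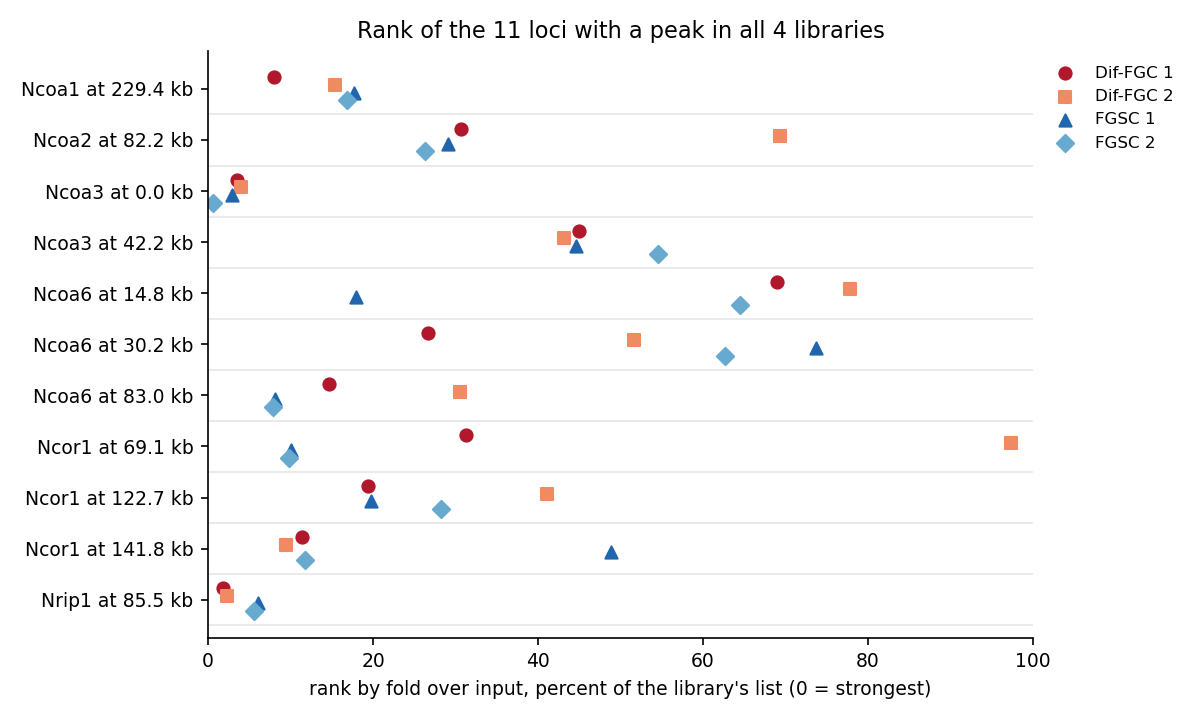
Rank by fold over input as percent of the library's list (horizontal axis, 0 = strongest) for the 11 loci with a peak in all 4 libraries, named by gene and by distance from the lower gene limit in kb; each point is 1 library. At 69.1 kb of Ncor1 the Dif-FGC ranks were 31.3% and 97.3%, against 10.1% and 9.77% in FGSCs, and at 85.5 kb of Nrip1 they were 1.79% and 2.35%, against 6.06% and 5.52%.

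In Ncoa1, Nrip1 and Ncor1 a peak of all 4 libraries ended at an annotated transcript start, so bases around starts are shown. They are RefSeq sequence of GRCm38.p6, and 5 of the 7 genes matched the table of start sites, with 8 starts. Runs at the Ncoa6 start, covered by a peak of FGSC 2 alone, and at the other Nrip1 start, in no peak, are not shown. Each run goes 5′ to 3′ along the gene's strand from 30 bases before the start to 30 bases from it on, and capitals mark bases inside a peak of any list.
Ncoa1, chr12:4477153-4477212, minus strand: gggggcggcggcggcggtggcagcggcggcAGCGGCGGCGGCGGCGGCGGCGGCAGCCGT
Nrip1, chr16:76373020-76373079, minus strand: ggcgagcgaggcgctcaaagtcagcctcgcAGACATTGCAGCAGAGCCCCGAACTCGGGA
Ncor1, chr11:62438486-62438545, minus strand: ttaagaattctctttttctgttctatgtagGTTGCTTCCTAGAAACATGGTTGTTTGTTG
Ncor1, chr11:62457303-62457362, minus strand: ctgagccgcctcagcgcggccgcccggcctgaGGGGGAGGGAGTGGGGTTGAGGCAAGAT
Esr1, chr10:4611959-4612018, plus strand: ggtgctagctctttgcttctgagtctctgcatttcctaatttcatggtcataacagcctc
Esr1, chr10:4710128-4710187, plus strand: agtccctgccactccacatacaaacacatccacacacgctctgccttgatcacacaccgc

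In Ncoa1, in Nrip1 and at the inner Ncor1 start, the capitals begin exactly at the annotated start and come from peaks of all 4 libraries, which ended at the base of the start. At the outer Ncor1 start they come from FGSC 1 alone. The Esr1 runs hold no capitals: neither of its starts lay in a peak, and the closest Esr1 peak, that of Dif-FGC 1 at chr10:4712572-4712847, lay 2414 bp from the second start.

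The strongest peak overlapped an annotated start in all 4 libraries in Ncoa1 and Nrip1, 2 of the 4 members with peaks in all 4 libraries and a start in the table. Over all such genes it was 30.2%. In Ncor1 the strongest peak lay 104 bp from the outer start in both Dif-FGC libraries, on its upstream side, and 53670 bp from the nearest start in both FGSC libraries. In Ncoa6, read from the minus strand, the strongest peak lay at the upper gene limit but 32857 bp from its only tabled start, which lies inside the gene and was covered by a peak of FGSC 2 alone. Ncoa2 and Ncoa3 were not in the table.

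The motif CNNCNNCN, a spaced run of cytidines linked to ac4C, was searched on both strands of the windows from 250 bases before to 50 bases from the start. In the first 50 bases on the gene's strand, overlapping matches included, there were 7 in Ncoa1, 4 at the Nrip1 start with the peak, 1 at the other Nrip1 start, 1 at each Esr1 start, 0 at both Ncor1 starts and 0 at the Ncoa6 start. Of 32851 such windows 50% held at least 1 match there, and over the whole window 94.7% did on the gene's strand and 95.6% on the other. On the gene's strand and on the other, the whole window held 17 and 70 matches in Ncoa1 and 17 and 0 in Ncoa6. In the same order it held 14 and 29 at the Nrip1 start with the peak and 3 and 9 at the other. At the inner and outer Ncor1 starts the counts were 4 and 2, and 12 and 33. At the Esr1 starts they were 7 and 6, and 10 and 5. The G and C content of the first 50 bases was 80% in Ncoa1 and 72% at the Nrip1 start with the peak, against 46% and 66% at the inner and outer Ncor1 starts, 40% and 58% at the Esr1 starts and a median of 56% over all windows.

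Further genes of the pathway were described from 5 lists with 93 genes. The lists were nuclear receptors together with Gper1, further coactivators, further corepressors, oestrogen targets, and chaperones and turnover factors of the receptor. Of the 93 genes, 74 had a peak in any library and 19 had none. Of the 74, 45 had a peak in all 4 libraries (60.8%, against 43.5% of all genes with a peak), 0 were in Dif-FGCs only (against 1.62%), 1 was in FGSCs only (1.35%, against 5.25%) and 28 had another combination. More peaks in both Dif-FGC than in both FGSC libraries were found for 6 of the 74 and fewer for 3, where 4.94% and 9.24% of all genes lay. The FGSC-only gene was Lcor, a ligand-dependent corepressor of nuclear receptors, with folds of 22.07 and 34.05 in FGSC 1 and 2 and no peak in either Dif-FGC library.

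The nuclear receptor list of 21 genes also held Gper1, the gene of a membrane oestrogen receptor that is not a nuclear receptor. Of the 14 listed genes with a peak, 6 had one in all 4 libraries (42.9%, against 43.5% of all genes with a peak). Esrra, an oestrogen-related receptor gene, was among the 6. Gper1 was not, with 1 and 0 peaks in Dif-FGCs and 2 and 1 in FGSCs. Of the 21, 7 had none, among them Esr2 and the progesterone receptor gene Pgr. By the same measure it was 20 of 27 coactivators (74.1%), 11 of 18 corepressors (61.1%), 5 of 11 oestrogen targets (45.5%) and 4 of 5 chaperone and turnover genes (80%).

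The strongest peaks of the pathway in all 4 lists, by mean rank, were those of Kdm1a, Fkbp5, Safb2 and Rbbp7. The demethylase gene Kdm1a had folds of 293.53 and 178.93 in Dif-FGCs and 354.6 and 353.71 in FGSCs, and the immunophilin gene Fkbp5, whose product binds HSP90 in steroid receptor complexes, had 275.99 and 177.69 against 394.71 and 181.41. Safb2, a corepressor of ERα, had 99.97 and 84 in Dif-FGCs and 236.64 and 162.47 in FGSCs. Rbbp7, a histone-binding subunit of deacetylase complexes, had 165.17 and 89.37 in Dif-FGCs and 117.91 and 118.77 in FGSCs. In both Dif-FGC lists the Nrip1 and Ncoa3 peaks ranked below those of Kdm1a and Fkbp5, and in FGSC 2 the Ncoa3 peak, with its fold of 308.28, ranked above those of Fkbp5, Safb2 and Rbbp7.

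For the coregulators, the genes nearest in rank over the 4 lists were Myo1f to Ncoa1, Cutc to Ncoa2, Ipo9 to Ncoa3, Ttc13 to Ncoa6, 4932438A13Rik to Ncor1 and Pdcd7 to Nrip1. The distances were 2.14, 1.96, 1.24, 3.18, 2.76 and 0.941 percentage points in the same order.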

How the data were processed

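ac4C peaks of 4 IP libraries, 2 per group, were analysed, each called over its own input. Of tools, the submitters' processing notes list cutadapt, HISAT2 and MACS2, and of builds mm10, while versions are not given in the sources used here. In the deposited lists a peak has a fold (the ratio of IP to input signal), a score (minus 10 times the log10 of its p-value) and an FDR in percent, all made by the authors. FDR was 100% at every member peak of Dif-FGC 2 and 51.53% to 83.05% at those of the other libraries. It was not used as a filter. The lowest score in a list was 50 to 50.02, and a score of 3100 was the commonest in each list. Neither read counts nor strand are in the lists, and no count test was run. The 4 input libraries were not analysed here.

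Positions are counted from 1. Peaks overlapping by at least 1 bp were merged with Python 3.11.15, pandas 2.3.3 and numpy 2.4.6 and drawn with matplotlib 3.10.9, and the merging and the test were tested on simulated data. Folds were ranked within a list and not compared between lists by a test. Peak numbers and ranks were compared by the exact two-sided permutation test, with 6 assignments of libraries to groups, and peak numbers were adjusted by Benjamini-Hochberg over all 11417 genes. Gene limits came from RefSeq on GRCm38.p6, which matched 7 of 7 members by symbol, and start sites from its promoter table, which matched 5. No peak inside the limits of a member carried another gene's name (0 peaks). Exon annotation was not used. Replicate numbers, copied from the labels, were checked for pairing: deviations of same-numbered libraries in peaks per gene correlated at 0.128, with 2 pairs. Named genes were the 7 members, the pathway genes of 1 group only, the 4 pathway genes best in mean rank, and the genes nearest in rank. The other genes given by name, such as Esrra, Esr2, Pgr and the granulosa markers, were chosen after their values were seen. The members and lists were chosen with earlier results of these data known. Alternatives covered the overlap, score and fold limits, list lengths, the joining of near peaks, the group rule, the ranking and each library left out.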

Additional observations from a re-analysis of the deposited data

How the results depend on the processing

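Of 96 recomputed values, 7 turned sign, 23 were labelled as moved and 66 as neither. Counts moved by over 1.5 times or to or from 0, and ranks by the replicate spread or more. Differences in peak number were set against that spread only where 1 library was left out. In other settings they could only turn sign, and the replicate block was not labelled by its value. The 23 include 4 values of Ncoa6 that stayed at -1, since its replicate spread was 0, and the rank of Esr1, which had no such spread. The 66 include differences in peak number that left or reached 0 with no p under 0.05: Ncoa1 and Ncoa2 were 0 with equal list lengths, Ncoa2 was 0 and Ncoa3 1.5 at a score of at least 100, and Nrip1 was -0.5 with equal list lengths. The 66 also include Ncor1 at -3 among peaks ranked within 50% of their list, against -1 in the main setting. The member loci in all 4 libraries were 11 at an overlap of 50% of the shorter peak, and 6 when only peaks ranked within 50% of their list by fold were kept. The loci in FGSCs only were 1 at a score of at least 100, that of Ncoa1, since the Ncoa2 peak of FGSC 1 had a score of 69.75. With 1 library of the group sufficient, 15 loci were in Dif-FGCs only and 19 in FGSCs only. Leaving out 1 library gave 12 to 13 loci in all remaining libraries, 1 to 13 in Dif-FGCs only (13 without Dif-FGC 2) and 3 to 17 in FGSCs only (17 without FGSC 2). Ranked by score instead of fold, an alternative chosen after seeing the data, 3 shared loci were weaker and 2 stronger in both Dif-FGC libraries, and ranked among shared loci alone 4 and 3. The loci on the same side in all 3 rankings were chr2:155473640-155473894 in Ncoa6 and chr11:62384718-62384845 in Ncor1, both weaker, and chr16:76372872-76373049 in Nrip1, stronger. For Ncor1 the ranking by score adds little, since Dif-FGC 1, FGSC 1 and FGSC 2 all had a score of 3100 there. Dif-FGC 1 ranked weaker only because 12.2% of its list shared that score, against 4.61% and 9.01% in FGSCs. The Ncoa3 locus that was weaker by score had 3100 in both Dif-FGC libraries and in FGSC 2, so its side rests on ties too.

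The Esr1 difference in peak number, 0.5, ran from -1 without Dif-FGC 1 to 2 without Dif-FGC 2, and was -0.5 without FGSC 2. Leaving out 1 library also turned the sign for Ncoa1 (-3 to 1, positive without Dif-FGC 2 or FGSC 1), Ncoa2 (-2.5 to 0.5, positive without FGSC 1) and Ncor1 (-3.5 to 1.5, positive without Dif-FGC 2, and 0.5 without FGSC 1), while Ncoa6 stayed at -1. With the replicate number as a block the Esr1 difference was 0.5 (exact permutation within numbers, p = 1, smallest possible 0.5), and no call changed. The numbers were not shown to pair the libraries. By score the mean rank of the strongest peak was 69.3% for Esr1 (59.8% by fold), 28.8% for Ncoa1 (14.5%), 15.7% for Ncoa2 (15.5%), 6.33% for Ncoa3 (2.76%), 24.5% for Ncoa6 (15.3%), 5.41% for Ncor1 (10.2%) and 8.75% for Nrip1 (3.93%), so Ncor1 ranked first by score and Ncoa3 by fold, and Esr1 last by both. The order of Ncor1 and Ncoa3 by score rests on FGSC 1 alone, at 2.52% against 6.19%. In Dif-FGC 1, Dif-FGC 2 and FGSC 2 they tied, at 6.44%, 7.83% and 4.85%. The FDR column and the unknown depth limit every peak given here, and the cause of the changes was not tested.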
